A study of Mus musculus with 8 samples.

Results

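The 10 genes described here encode the replicative helicase and the factors that load and activate it on DNA: the helicase subunits Mcm2, Mcm3, Mcm4, Mcm5, Mcm6 and Mcm7, the loading factors Cdc6 and Cdt1, and Gins1 and Gins2 of the GINS complex. They were chosen by name, with earlier results of these data known. Each was taken as the row of the array whose platform annotation gives that single symbol. All 10 had exactly 1 such row, and they are 10 of the 19938 genes measured. The data are 8 arrays (Affymetrix Mouse Gene 1.0 ST), 4 of a sorted fraction called tumor-initiating cells (TIC) and 4 of the CD24- fraction of the same material. The cells came from primary mammary tumors, under 1.0 cm across, of FvB mice with the MMTV-Neu transgene, in which a viral promoter active in mammary epithelium drives the Neu receptor (Erbb2), so every sample of both groups carries the transgene. Tumors N251, N260 and N283 each gave a pair of arrays, and equal parts of N222 and N229 were mixed before the sort, to reach enough cells, and gave the fourth pair, called the pool. Tumor names follow the sample titles; N251 and N260 appear as N250 and N261 in a protocol field. The sources used here give neither the markers of the TIC gate nor the ages of the mice.

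A cell licenses its replication origins in G1, when the origin recognition complex, Cdc6 and Cdt1 load the ring of MCM proteins around DNA in an inactive state. At the start of S phase Cdc45 and GINS join the ring and turn it into the active helicase that unwinds DNA ahead of the polymerases. Geminin and the destruction of Cdt1 prevent a further round of loading, and transcription of most of these genes is known to be driven by E2F factors as cells enter the cycle, so the family is a common mark of proliferating cells in tumors.

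The promoters of the members are shown because the members' levels ran in parallel across the arrays. RefSeq windows of 300 bases (build GRCm38.p6, 250 before and 50 after an annotated start) were at hand for 7 members: Mcm2, Mcm3, Mcm5, Mcm6, Mcm7, Cdc6 and Cdt1. The E2F motif was searched on both strands as any of the 4 words TTTCCCGC, TTTCGCGC, TTTGCCGC and TTTGGCGC. It was found in 6 of the 7 members, the exception being Mcm2, whereas 2.26% of all 32851 windows hold it. The box of NF-Y, CCAAT, was found in 5 members, namely the 5 MCM genes with a window, against 37.4% of all windows. In the stretches printed here the capitals mark matches, those of 8 letters or more to E2F words and those of 5 letters to CCAAT or its complement ATTGG.

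Upstream stretches of 170 bases ending at the base before the start are given for 4 genes, and 30 bases around the E2F matches for Mcm3 and Cdt1, whose E2F matches lie after the start. The 3 CCAAT matches of Mcm3, at -117, -72 and -32 from the start, fall outside its stretch. They run 5′ to 3′ along the gene. They lie at chr1:128359706-128359875 (minus strand) for Mcm6, chr8:75109339-75109508 (plus) for Mcm5, chr5:138171884-138172053 (minus) for Mcm7, chr11:98907981-98908150 (plus) for Cdc6, chr1:20820265-20820294 (minus) for Mcm3 and chr8:122568035-122568064 (plus) for Cdt1.
Mcm6: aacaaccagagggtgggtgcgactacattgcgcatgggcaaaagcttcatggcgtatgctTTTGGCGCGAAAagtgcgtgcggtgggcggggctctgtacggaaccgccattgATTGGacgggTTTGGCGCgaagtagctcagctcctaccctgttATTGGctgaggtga
Mcm5: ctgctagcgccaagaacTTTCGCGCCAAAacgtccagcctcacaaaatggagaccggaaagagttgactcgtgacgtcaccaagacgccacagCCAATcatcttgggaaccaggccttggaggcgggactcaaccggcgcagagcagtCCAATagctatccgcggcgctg
Mcm7: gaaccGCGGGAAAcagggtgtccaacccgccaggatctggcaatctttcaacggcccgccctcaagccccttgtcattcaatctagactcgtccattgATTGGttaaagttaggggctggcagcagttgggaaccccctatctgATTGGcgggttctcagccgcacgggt
Cdc6: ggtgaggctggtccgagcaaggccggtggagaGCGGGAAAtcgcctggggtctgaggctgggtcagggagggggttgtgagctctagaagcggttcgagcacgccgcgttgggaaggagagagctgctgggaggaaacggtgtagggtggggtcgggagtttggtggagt
Mcm3: gGCGGGAAAacttgggaagtTTTGGCGCca
Cdt1: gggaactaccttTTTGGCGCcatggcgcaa
Mcm6 holds 3 E2F matches, at positions -110, -106 and -47 (first base, counted from the start). The pair at -110 and -106 lies on opposite strands and overlaps, and so does the pair of Mcm5 at -153 and -149. Mcm7 has a match at -165 and another at 17 that overlaps a CCAAT match by 1 base, and its other annotated start has no E2F match in its window. Cdc6 and Cdt1 hold 1 E2F match each and no CCAAT. A match is a description of letters and not a binding site.

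**Figure D1:**
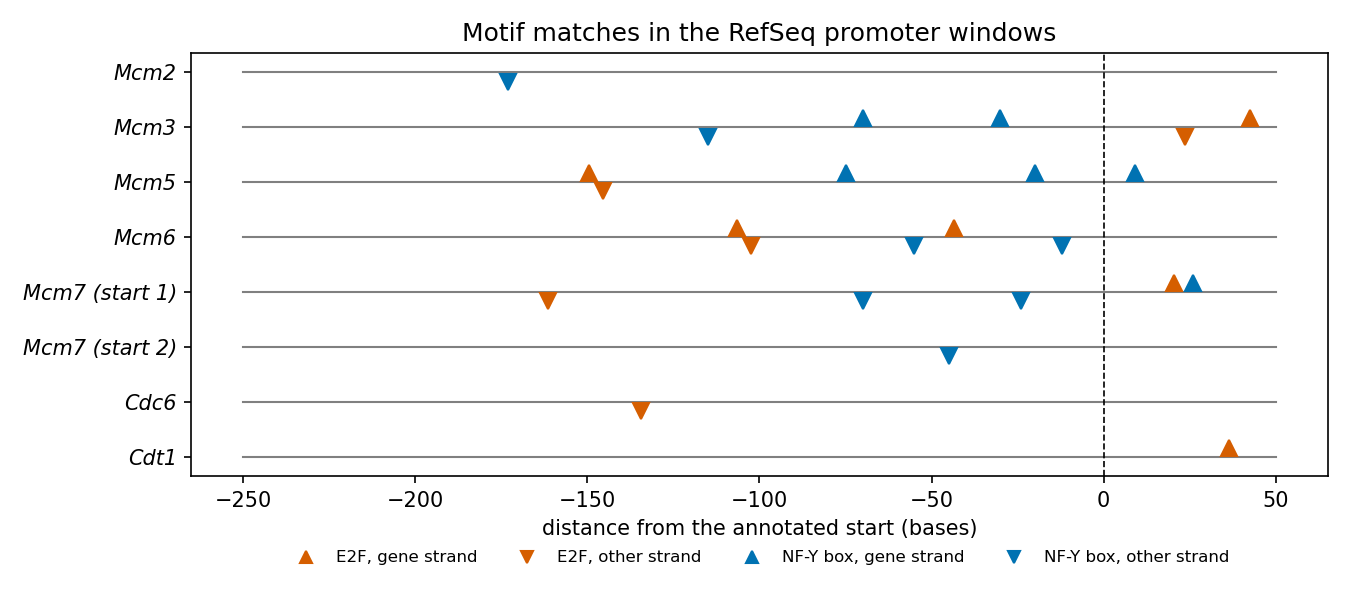
Positions of E2F and NF-Y box (CCAAT) matches on each strand, in bases from the annotated start (dashed line), for the 8 RefSeq windows of 7 members. E2F matches are found in 6 of the 7 genes and NF-Y boxes in the 5 MCM genes.

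The values are log2 intensities as deposited, so that a difference of 1 is a doubling. Array medians over genes ran from 7.32 to 7.48, and the correlation between arrays was 0.984 to 0.994 within the TIC fraction and 0.929 to 0.987 within the CD24- fraction. The mean of 12 luminal epithelial markers was 10.33 to 10.49 in the TIC arrays and 9.47 to 10.38 in the CD24- arrays, of which Krt19 (means 6.36 and 6.29) lay below the array medians and Elf3 (7.64 and 7.46) near them. The 12 include Erbb2, the gene of the receptor that the transgene drives, with means of 12.37 in TIC and 11.93 in CD24- arrays. Its differences were 0.97 for N251, 0.07 for N260, 0.05 for N283 and 0.65 for the pool. Cd24a, which encodes the antigen named in the label, averaged 12.32 ± 0.21 (SD, n = 4) in TIC arrays and 11.22 ± 0.67 in arrays labelled CD24-, where its RNA was thus present. All 16 leukocyte and macrophage markers were lower in TIC cells in each pair, 12 of them called by limma, and their mean level was 6.20 to 6.48 in the TIC arrays and 9.28 to 11.70 in the CD24- arrays. No marker is at 0, since background gives every row of such an array a value. The mean leukocyte difference was -5.24 for N251, -4.64 for N260, -3.83 for N283 and -2.80 for the pool, and its part in the differences of the members was not tested. Of the 8 fibroblast and 8 endothelial markers limma called 0 in either direction without the block (3 and 2 lower at an unadjusted p of less than 0.05) or with it. With the random block it called Lum, Fap and Tie1 lower, which are named after their values were seen. In such bulk RNA, fewer cells of a type and less RNA per cell cannot be told apart.

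All 10 licensing and helicase genes had more RNA in the TIC fraction on average, by 1.17-fold (Cdt1) to 1.85-fold (Mcm6), with a median log2 difference of 0.51. The difference was positive in all 4 pairs for 9 members, the exception being Cdt1, where 23.2% of all genes were higher in all 4 pairs. The median over all 19938 genes was 0.04, and 11858 of them had a positive mean difference. Without the tumor in the model, limma called 0 members at the threshold of 0.05 on the Benjamini-Hochberg adjusted p, where 0.0502% of all genes were called higher. Mcm5, Mcm6, Mcm7 and Gins2 had an unadjusted p below 0.05, as did 8.02% of all genes in the higher direction. With the tumor as a block, which compares the fractions within each tumor, 4 members rose: Mcm5, Mcm6, Mcm7 and Cdc6 (0.863% of all genes were called higher). With the tumor as a random effect 2 rose, Mcm7 and Gins2 (2.16% of all genes).

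Leaving out a tumor changed the blocked calls. Without N260 or without N283 the blocked fit called 0 members, and also 0 of 19938 genes. Without N251 it called 6, adding Mcm2 and Mcm4, where 1.81% of all genes were called higher. Without the pool it called 3, Mcm6, Mcm7 and Cdc6, where 0.371% of all genes were called higher.

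**Figure D2:**
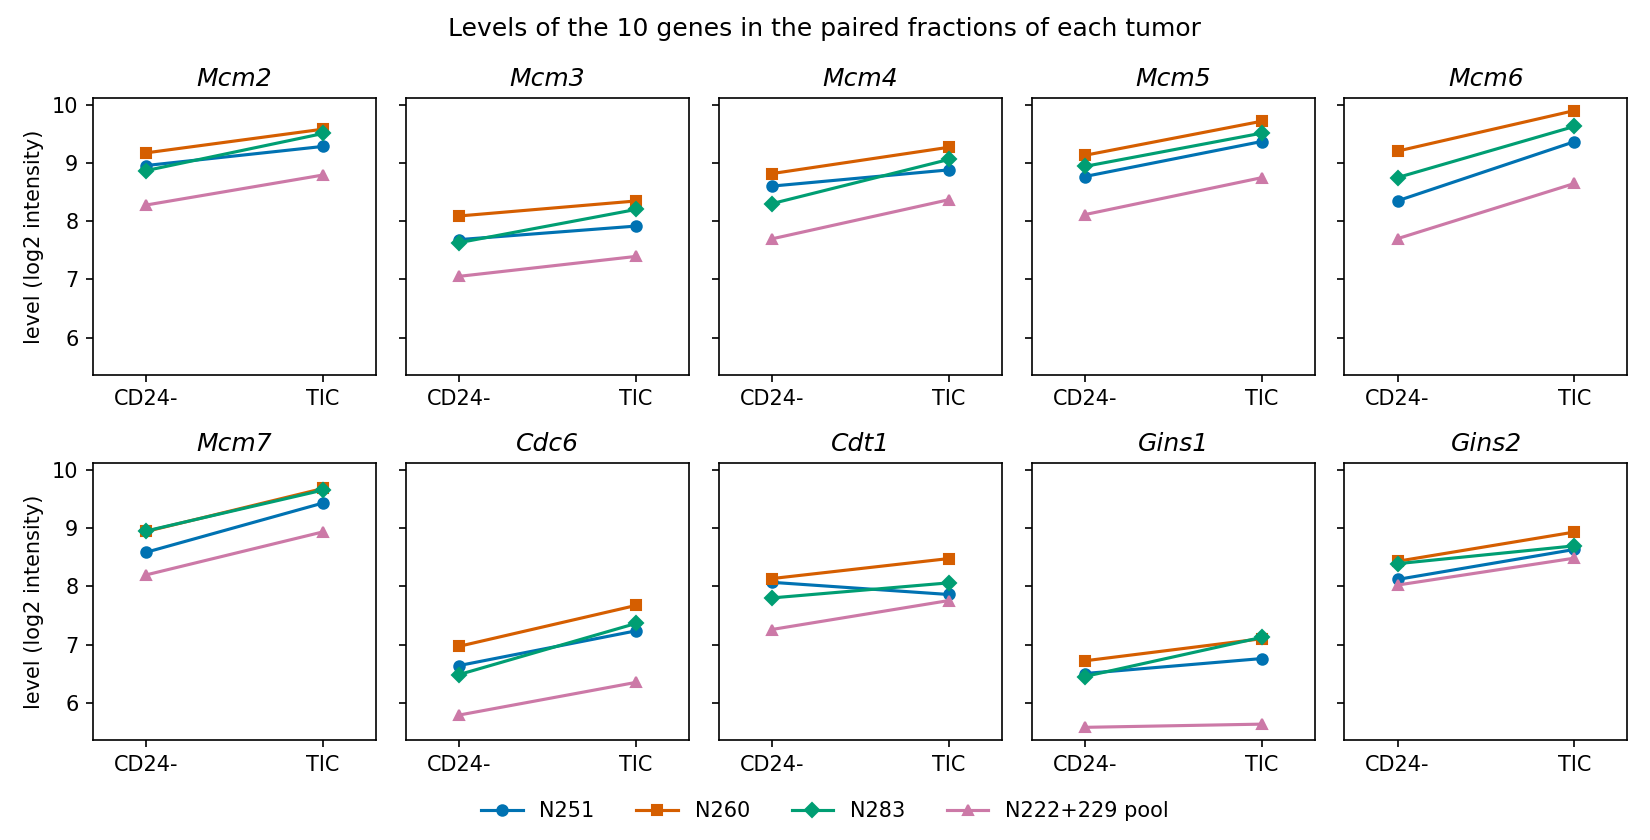
Level (log2 intensity) of each of the 10 genes in the CD24- and TIC fractions, with a line joining the 2 fractions of each tumor or pool. The lines run upward except that of Cdt1 in N251, and the pool is the lowest line in every panel.

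The 6 subunits of the MCM ring all had positive differences in each of the 4 pairs. Mcm6 had the largest mean difference. Its levels in the TIC fraction were 9.37 for N251, 9.90 for N260, 9.63 for N283 and 8.65 for the pool, and in the CD24- fraction 8.35, 9.20, 8.75 and 7.70 in the same order. Every tumor had more in its TIC fraction, yet the CD24- level of N260 was above the TIC level of the pool, so the groups overlap. The mean difference was 0.89 ± 0.14 (SD over 4 pairs), with an adjusted p = 0.302 in limma without the block and 0.0189 with it.

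Mcm7 was at 9.43, 9.68, 9.66 and 8.94 in the TIC fraction of N251, N260, N283 and the pool, and at 8.59, 8.94, 8.95 and 8.20 in the CD24- fraction. The TIC fraction was higher by 0.85, 0.74, 0.70 and 0.74, a mean of 0.76 ± 0.06. The lowest TIC array, that of the pool, was just under the CD24- arrays of N260 and N283. Mcm7 was called with the fixed block (limma adjusted p = 0.0189), with the random block (0.0217) and with array weights (0.0309), and not in the fit without the tumor (0.171).

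Mcm5 had nearly the same difference in each tumor. It was at 9.37, 9.72, 9.51 and 8.75 in the TIC fraction and at 8.77, 9.13, 8.94 and 8.11 in the CD24- fraction of N251, N260, N283 and the pool. The differences were 0.60, 0.59, 0.57 and 0.63, a mean of 0.60 ± 0.03 (SD, n = 4). The level itself spanned 0.97 among TIC arrays and 1.02 among CD24- arrays, so the groups overlap although the pairs agree closely. The adjusted p was 0.341 in limma without the block and 0.0255 with it.

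Mcm2, Mcm3 and Mcm4 had smaller mean differences. Mcm4 differed by 0.54 ± 0.22, from 0.28 in N251 to 0.76 in N283, with 8.88, 9.27, 9.06 and 8.37 among TIC arrays and 8.60, 8.82, 8.30 and 7.70 among CD24- arrays. Mcm2 differed by 0.47 ± 0.13, from 0.33 in N251 to 0.64 in N283, at 9.28, 9.58, 9.51 and 8.79 against 8.96, 9.17, 8.87 and 8.28. Mcm3 differed by 0.35 ± 0.15, from 0.23 in N251 to 0.57 in N283, at 7.92, 8.35, 8.20 and 7.39 against 7.68, 8.09, 7.63 and 7.05. All 3 had their smallest difference in N251 and their largest in N283, and their groups overlap. None of the 3 was called with the block (limma adjusted p = 0.0560 for Mcm2, 0.109 for Mcm3 and 0.0686 for Mcm4).

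Since the proteins act in a single ring, the differences of the subunits were compared with each other within each tumor. Of the 15 pairs of subunits 10 kept the same order in all 4 tumors. Mcm6 exceeded Mcm3 by 0.53 ± 0.21 (SD, n = 4), with gaps of 0.31 to 0.78. Mcm7 exceeded Mcm3 by 0.41 ± 0.20, with gaps of 0.13 to 0.61. An exact two-sided sign-flip test over 4 tumors cannot go below p = 0.125, the value these 10 pairs reached (0.188 after Benjamini-Hochberg adjustment over 15 pairs), so no order among the subunits passed a test. The values are differences of the same row between fractions, and levels of different rows were not compared.

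Cdc6, an ATPase that helps to load the MCM ring, differed nearly as much as Mcm7. It was at 7.24, 7.67, 7.36 and 6.35 in the TIC fraction of N251, N260, N283 and the pool and at 6.64, 6.97, 6.49 and 5.79 in the CD24- fraction. The TIC fraction was higher by 0.56 to 0.88, a mean of 0.68 ± 0.14 (limma adjusted p = 0.370, and 0.0292 with the block). The row is dim, below the median gene in 7 of 8 arrays and below the lower quartile in 1.

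Cdt1, which brings the MCM ring to the origin and is destroyed in S phase, was the only member without a common direction. It was at 7.86, 8.48, 8.06 and 7.76 in the TIC fraction and at 8.07, 8.13, 7.80 and 7.26 in the CD24- fraction. The difference was -0.21 for N251 but 0.34 for N260, 0.26 for N283 and 0.50 for the pool. The mean of 0.22 ± 0.30 (SD, n = 4) is smaller than its spread, and Cdt1 was called in none of the fits run (limma adjusted p = 0.710, and 0.357 with the block).

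GINS is a ring-shaped partner of the helicase, and 2 of its subunits are members. Gins2 was the only member whose groups did not overlap, where 5.19% of all genes had every TIC array above every CD24- array. Its levels were 8.64, 8.93, 8.70 and 8.49 among TIC arrays and 8.12, 8.43, 8.39 and 8.02 among CD24- arrays. The mean difference was 0.45 ± 0.10, with a limma adjusted p = 0.191 without the block, 0.0533 with it and 0.0314 with the random block. Gins2 varied least between tumors, with a SD of 0.19 over tumor means where the other members had 0.33 to 0.60.

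Gins1 lay below the median gene in all 8 arrays. It was at 6.76, 7.10, 7.12 and 5.63 in the TIC fraction and at 6.50, 6.72, 6.45 and 5.58 in the CD24- fraction, so that both fractions of the pool were below the lower quartile of their arrays. The fractions differed by 0.26, 0.38 and 0.67 in N251, N260 and N283 but by 0.05 in the pool, with a mean of 0.34 ± 0.26 (limma adjusted p = 0.730, and 0.173 with the block).

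**Figure D3:**
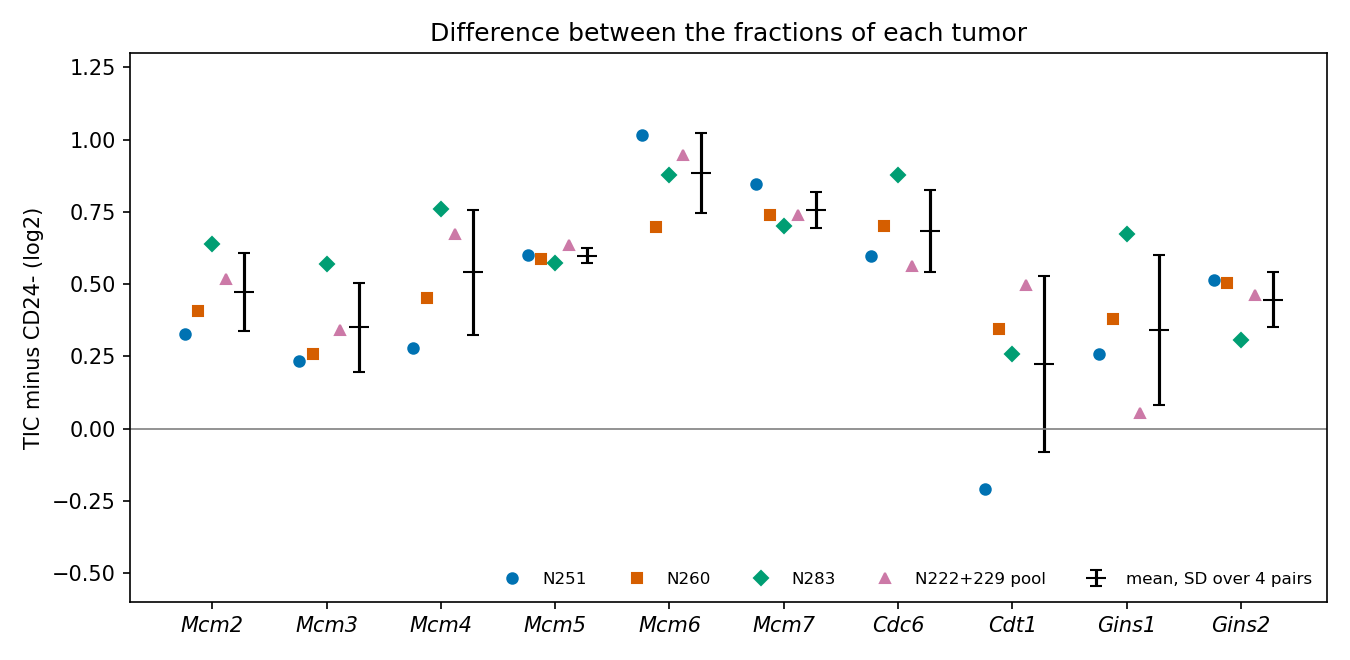
TIC minus CD24- difference (log2) of each gene in each tumor or pool, with the mean and the SD over the 4 pairs. Mcm5 and Mcm7 have SDs of 0.03 and 0.06, whereas Cdt1 spans -0.21 to 0.50.

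The members' levels differed widely between tumors. The pool had the lowest level of all 10 members in both fractions, where this was so for 21.1% of all genes. N260 had the highest level of 9 members in the TIC fraction, all but Gins1, and of 9 in the CD24- fraction, all but Mcm7, and in both fractions for 8 members (3.59% of all genes). The mean over the members was 8.87 in N260 and 7.91 in the pool among TIC arrays, and 8.36 and 7.37 among CD24- arrays. For 9 members, all but Gins2, the CD24- array of N260 was above the TIC array of the pool. The range over tumors within the TIC fraction was larger than the mean difference between fractions for 9 members, all but Mcm7 (0.75 against 0.76). For all 10 the SD of the tumor means exceeded the SD of the paired differences, by 1.07-fold (Cdt1) to 15.8-fold (Mcm5). The shares of all genes were not computed for these last counts, so whether they are particular to the members was not tested. N260 and the pool were set against each other after they were seen to be the members' highest and lowest. The pool is the only pair made from 2 tumors, so pooling and the tumors themselves cannot be told apart there.

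**Figure D4:**
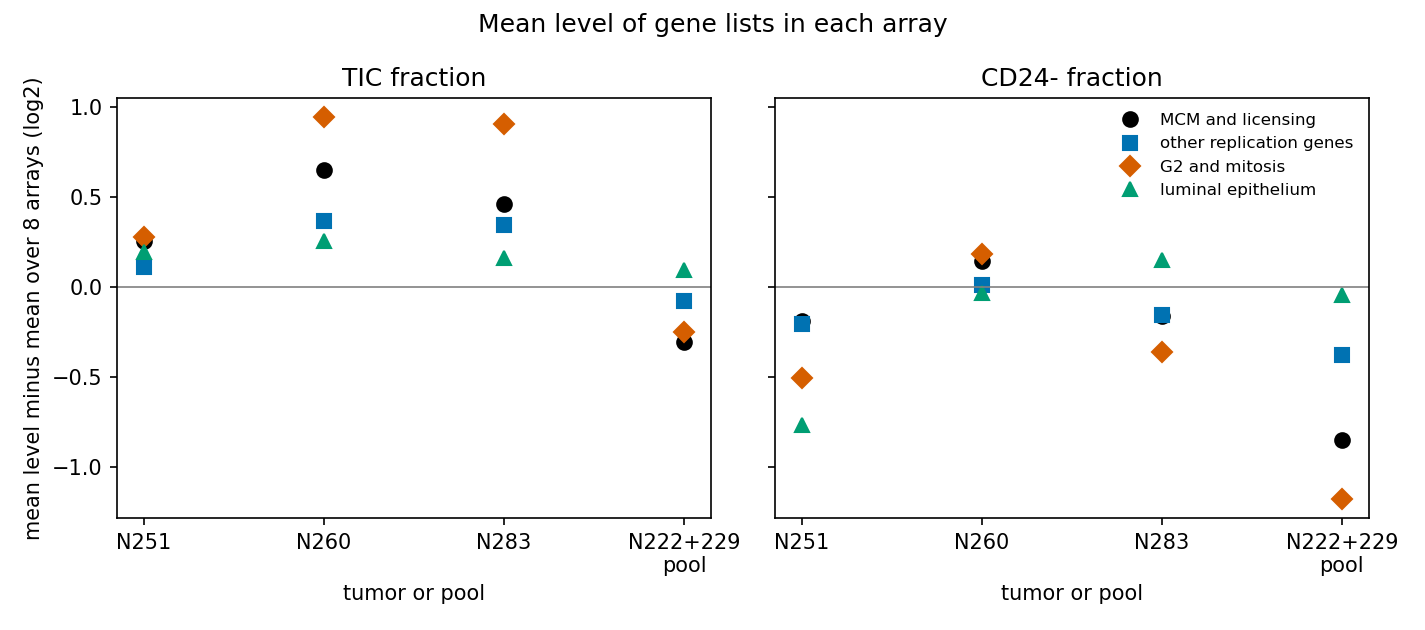
Mean level of gene lists in each array, as log2 distance from the mean of the list over all 8 arrays, in the TIC fraction (left) and the CD24- fraction (right). The licensing genes run from 0.65 in N260 to -0.31 in the pool in the TIC fraction, and the luminal markers from 0.25 to 0.10 in the same arrays.

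The other genes of replication mostly differed in the same direction, with a smaller median. Of 53 such genes, all measured, 51 had a positive mean difference (all but Orc3 and Mcm9) and 38 were higher in all 4 tumors, with a median of 0.36. Of all 19938 genes, 11858 had a positive mean difference and 23.2% were higher in all 4. Limma called 0 of the 53 without the block (25 at an unadjusted p below 0.05, all higher), 8 higher and 0 lower with the block and 12 higher with the random block. The shares of all genes higher were 8.02% at the unadjusted p, 0.863% with the block and 2.16% with the random block. By role, the median was 0.21 for 7 genes of origin recognition, 0.33 for 7 of licensing control, 0.41 for 11 of helicase activation and 0.43 for 24 of the replication fork.

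Among the origin recognition genes, which mark where the ring is loaded, 1 of 7 rose with the block. This was Orc6, at 8.11 ± 0.21 in TIC arrays and 7.63 ± 0.26 in CD24- arrays (difference 0.48, limma adjusted p = 0.222, and 0.0456 with the block). Orc1 differed by 0.33, Orc2 by 0.32, Orc4 by 0.21 and Orc5 by 0.19, each positive in all 4 tumors and not called. Orc3 differed by -0.04 and was positive in 1 tumor.

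In the list of licensing control 1 of 7 genes rose with the block. Dtl, the adaptor through which a ubiquitin ligase destroys Cdt1 in S phase, differed by 0.96, from 0.83 to 1.10 (limma adjusted p = 0.201, and 0.0189 with the block), beside 0.89 for Mcm6. Gmnn, which encodes geminin, the inhibitor of Cdt1, differed by 0.37, and Fbxo5, an inhibitor of the anaphase-promoting complex, by 0.64 (adjusted p = 0.139 and 0.0599 with the block). Both were higher in all 4 tumors.

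Of 11 helicase activation genes 2 rose with the block, Ticrr, which brings Cdc45 to the ring (0.74, limma adjusted p = 0.0253 with the block), and its partner Mtbp (0.50, 0.0425). Mcm10, a further activation factor, differed by 0.50 (0.0803). Cdc45 differed by 0.45 and the remaining GINS genes Gins3 and Gins4 by 0.33 and 0.47, all 3 higher in every tumor and not called with the block (adjusted p = 0.0831, 0.127 and 0.126). The 4 GINS genes thus had mean differences between 0.33 and 0.47.

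At the replication fork 3 of 24 genes rose with the block: Pole, the leading-strand polymerase (0.78, limma adjusted p = 0.0253 with the block), Prim1 of the primase (0.77, 0.0457) and Rfc3 of the clamp loader (0.62, 0.0343), which is named after its value was seen. Rfc4, another subunit of the clamp loader, differed by 0.71 (0.0622). Of the 4 other genes named after MCM, Mcm8 rose with the block (0.57, limma adjusted p = 0.0295). Mcm8 and Mcm9 form a helicase of DNA repair and are not part of the replicative ring. Mcm9 differed by -0.12, Mcm3ap by 0.08 and Mcmdc2, added to complete the list after its value was seen, by 0.06.

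Transcripts of the E2F and RB family, whose action on the members was not tested here, were less uniform. Of 13 genes, 10 had a positive mean, and 8 were higher in all 4 tumors. Of all 19938 genes, 11858 had a positive mean and 23.2% were higher in all 4 tumors. Rb1 and Rbl2, which encode pocket proteins that hold E2F in check, were lower in all 4, by means of -0.18 and -0.12. So were 2346 of all 19938 genes. The other pocket protein gene of the list, Rbl1, went the other way and was higher in all 4, by a mean of 0.35. Limma called 0 of the 13 without the block (E2f3, E2f6, E2f7 and Tfdp2 higher and E2f4 lower at an unadjusted p below 0.05) or with it. The same 4 higher genes rose with the random block. These genes, other than E2f7, are named after their values were seen. E2f8 and E2f7, repressors induced in S phase, differed by 0.72 and 0.58, and the activator E2f1 by 0.57 (limma adjusted p = 0.0730, 0.0673 and 0.0924 with the block).

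Mitotic genes had larger differences than the licensing genes in the same arrays. The mean over 19 measured genes of G2 and mitosis was 0.94, with 0.79 for N251, 0.76 for N260, 1.27 for N283 and 0.93 for the pool, where the 10 licensing genes had 0.45, 0.51, 0.62 and 0.54. Limma called 0 of the 19 without the block (16 at an unadjusted p below 0.05, all higher). It called 16 higher and 0 lower with the block (0.863% of all genes higher), and 11 higher with the random block (2.16%). Those that rose with the block included Kif11, a motor of the spindle (1.37), the kinase gene Cdk1 (1.37) and Prc1, a microtubule bundler (1.24). The order of tumors was also shared, with 18 of 19 mitotic genes lowest in the pool in both fractions and 14 highest in N260 in both. No test of the gap between the lists was run.

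**Figure D5:**
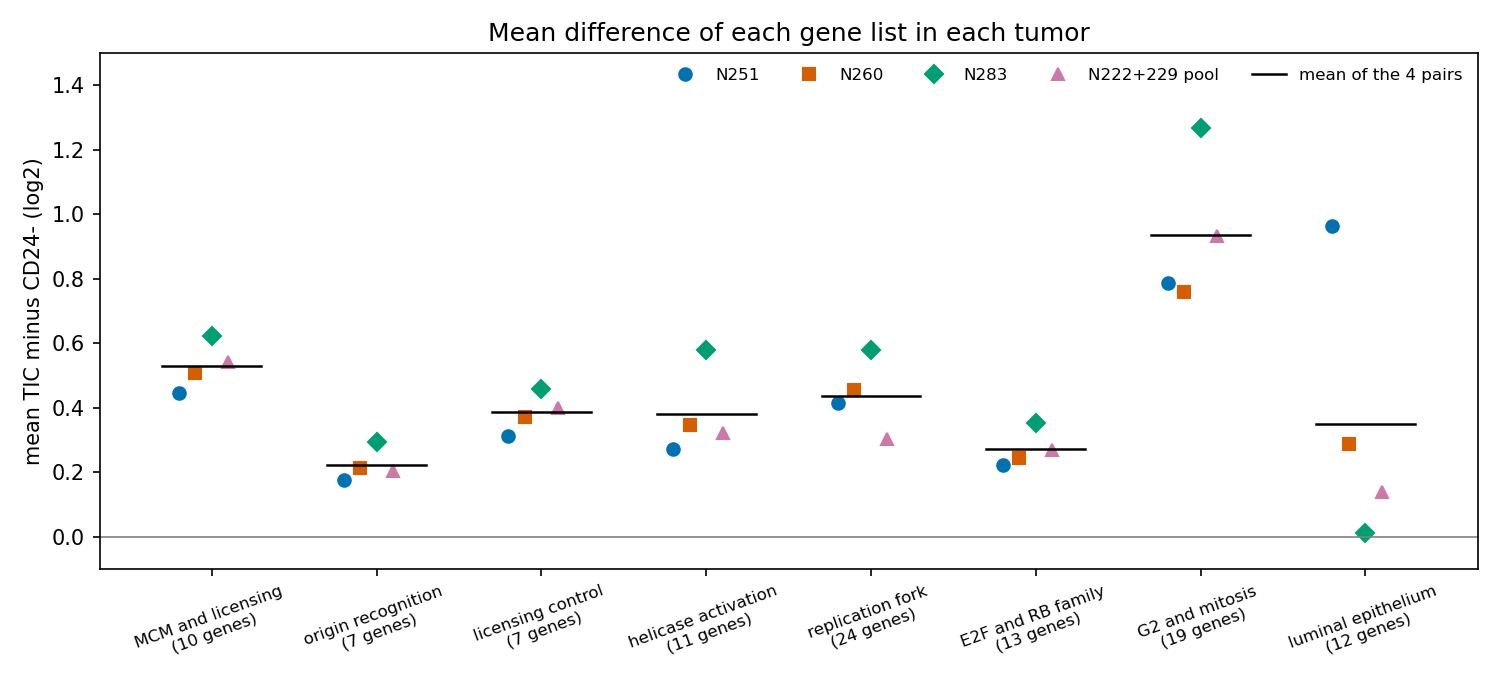
Mean TIC minus CD24- difference (log2) of each gene list in each tumor or pool, with the mean of the 4 pairs as a bar. The licensing genes lie between 0.45 and 0.62 in every pair, while the luminal markers run from 0.01 in N283 to 0.96 in N251.

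To find the genes whose levels followed the members most closely, each gene was compared with the mean of the 10 members, each centred on its own mean, by Pearson correlation over the 8 arrays, which share tumors in pairs. The 10 closest were Aurkb, a mitotic kinase gene (0.990), Fbxo5 (0.988), Pole (0.988), Topbp1, an activation factor at the fork (0.987), Foxm1, a transcription factor of mitotic genes (0.987), Parp1 (0.986), Smc2 of condensin (0.984), Cdca5 of cohesion (0.984), Kif22 (0.983) and the histone gene H2bc3 (0.983). The members themselves correlated with the mean of the other 9 at 0.994 for Mcm2 down to 0.862 for Cdt1. Of the 10 closest genes, Parp1 had the smallest difference between fractions (0.17) and H2bc3 the largest (1.15).

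Luminal markers also differed between the fractions, and their pattern over tumors was another one. Their mean difference (12 markers) was 0.96 for N251, 0.29 for N260, 0.01 for N283 and 0.14 for the pool, with 0 of 12 called by limma (2 higher at an unadjusted p below 0.05). Relative to them, the median member stood at -0.54 for N251, 0.19 for N260, 0.64 for N283 and 0.40 for the pool. In N251 only Mcm6 stayed above the markers, whereas in N283 all 10 did. Over all tumors the median of the members relative to the markers was 0.16, the means of Cdt1 (-0.13) and Gins1 (-0.01) turned negative, and Mcm6 alone was positive in all 4 tumors (mean 0.53). With arrays centred on these markers the median of all genes shifted to -0.31, against which the members' median of 0.16 stands. Limma then called 0 members with or without the block. Of all 19938 genes it called 4 higher and 398 lower without the block, and 40 higher and 1017 lower with it. The part of epithelial content in the members' differences was not tested.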

How the data were processed

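Per the submitters' processing notes the authors used RMA and Partek, and the deposited values are log2 intensities per transcript cluster. The sources used here give no version, setting or genome build. RMA corrects background and normalizes between arrays. Whether this changed the differences of dim rows such as Gins1 was not tested. Of 35556 rows, 21789 carried exactly 1 symbol. Symbols were checked through gene identifiers (21698 rows matched, RefSeq GRCm38.p6), which changed 0 of them. These rows gave 19938 genes, each taken as its brightest row.

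Differences are TIC minus CD24-, fitted over all genes with limma 3.58.1 in R 4.3.3 (lmFit, eBayes, Benjamini-Hochberg) on all 8 arrays without a block. A second fit has the tumor as replicate block, since the titles pair the fractions by tumor. Deviations from the group mean correlated across genes within pairs (0.32 for N251, 0.43 for N260, 0.30 for N283, 0.56 for the pool). The fits were tested on simulated data. Precision is limited by the number of arrays.

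The members and gene lists were chosen with earlier results of these data known. Besides the members, the rule names Cd24a and Erbb2 as label checks, Cdc45, Gins3, Gins4, Gmnn, the Orc genes, the 3 genes of each list with the largest absolute difference, called genes of a list's minority direction and the 10 closest profiles. Genes outside it, Mir106b, Mir93 and Mir25 among them, were chosen after their values were seen.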

Additional observations from a re-analysis of the deposited data

How the results depend on the processing

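Across 29 alternative settings the direction of each member's mean difference held in 284 of 288 values and reversed in 4. These were Cdt1 (-0.128) and Gins1 (-0.010) when arrays were centred on luminal markers, without and with the replicate block, the latter setting chosen after seeing the data. Many of the 288 values could not differ from another. Settings that change only the block, the variance prior, the p threshold or the rows tested leave a member's mean difference as it was. The count is thus not a count of independent checks. Against 0 members called higher, the count was 4 with the replicate block, 2 with the random block, 1 with array weights, 6 with the block and no N251, and 3 with the block and no pool. Array weights called 191 of 19938 genes higher, where the main fit called 10. No setting called a member lower. The median difference of 0.506 became 0.389 after cyclic loess and 0.156 after luminal centring, with or without the block. Leaving out 1 array or 1 tumor gave 0.348 (no CD24- array of the pool) to 0.699 (no TIC array of the pool). Against 0 other replication genes called higher, the count was 8 with the block, 12 with the random block, 7 with array weights, 1 after median centring and 1 after quantile normalization. It was 14 with the block and no N251, 6 with the block and no pool, and 0 to 1 without 1 array or tumor. Of all 19938 genes, 26 were called higher after median centring and 15 after quantile normalization. The cause of these changes was not tested. Gins1 and Cdc6 were not tested among genes at or above the median level, being dimmer.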

Other observations

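Mcm7 is the host of 3 miRNA genes, Mir106b, Mir93 and Mir25, whose hairpins lie inside it on the same strand of chromosome 5 in RefSeq (GRCm38.p6). The array has a row for each hairpin, matched by accession. Unlike the host, whose difference was 0.76, these rows differed by -0.07, -0.04 and 0.07 (limma adjusted p = 0.869, 0.938 and 0.901, and 0.621, 0.877 and 0.849 with the block). They were higher in the TIC fraction in 1, 2 and 2 of the 4 tumors, and Mir25 ran from -0.53 in N283 to 0.49 in N251. Whether such rows read the mature miRNA, its hairpin or the host's intron was not tested. Nor was it tested whether their signal lay above background, where a difference could not show. The mature sequences are given to show the seeds (bases 2 to 8, in capitals), which miR-106b-5p and miR-93-5p share.
mmu-miR-106b-5p: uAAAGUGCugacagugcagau
mmu-miR-93-5p: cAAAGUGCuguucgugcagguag
mmu-miR-25-3p: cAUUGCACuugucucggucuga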
